A study of Arabidopsis thaliana with 12 samples.

Results

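The genes described here encode parts of the photosystems and of their light-harvesting antenna: PSBY (AT1G67740), PSBW (AT2G30570), PSAN (AT5G64040) and LHB1B2 (AT2G34420). These 4 genes were chosen by name from the probe annotation, as 4 of the 692 probes that name exactly 1 gene in a table of 3439 probes. Each has 1 probe, and all 4 probes were above 0 in all 12 samples and passed the filter on low values. RNA abundance had been measured in wild-type Arabidopsis thaliana of the ecotype Wassilevskija. In 6 samples, called sucrose medium, plants had spent 30 min in MS (a plant salt medium) that contained 60 mM sucrose. In the other 6 samples, called water, plants had received a water treatment whose duration the labels do not give. Salts and sucrose were supplied together, so their parts in a difference cannot be told apart. The labels name no tissue, age or culture, and do not say that samples of a group came from separate plants, so each p-value reflects only how these samples scatter, and that scatter may be technical.

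Photosystem II takes electrons from water and photosystem I passes them on towards ferredoxin. Both sit in the thylakoid membrane and receive excitation energy from chlorophyll-binding light-harvesting proteins. Some photosystem subunits are encoded in the plastid, and others, with the light-harvesting proteins, in the nucleus. The supply of sugars is known in plants to influence the transcripts of many photosynthesis genes. PSBY encodes small membrane proteins of photosystem II that lie near cytochrome b559. PSBW encodes a small photosystem II subunit at the border between the core and its antenna. PSAN encodes a lumenal subunit of photosystem I on the side where plastocyanin docks. LHB1B2, also called LHCB1.5, encodes a form of the major trimeric antenna protein of photosystem II.

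The deposited intensities run from 0 to 100 on a linear scale of unknown unit. Array medians lay between 0.422 and 0.459 in sucrose medium and between 0.171 and 0.188 in water, while array means were closer, at 0.988 to 1.03 in sucrose medium and 0.922 to 0.958 in water. Between 1 and 2 probes per sample stood at 100 in sucrose medium, against 5 to 8 in water (within 0.0005). None of the 4 genes reached 100, and their highest value was 47.5. Within each group samples 1 and 2, 3 and 4, and 5 and 6 were closest to each other, with Spearman correlations across probes of 0.979 to 0.986 in sucrose medium and 0.957 to 0.967 in water, so values of these sets of 2 samples are given where they bear on a gene. The number of arrays limits the precision.

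On the deposited scale all 4 transcripts had lower intensities in sucrose medium than in water in each of the 6 same-numbered pairs of samples, a pattern found for 7.96% of the 2915 probes tested. The mean intensity was 1.26-fold lower for PSBY, 1.39-fold for PSBW, 1.16-fold for PSAN and 1.45-fold for LHB1B2. These 4 probes are among the brighter ones, and most of the dimmer probes were higher in sucrose medium on the same scale. After quantile normalisation, which gives every array the same distribution of values, PSBY alone of the 4 fell by the test with group as the only term (limma, Benjamini-Hochberg adjusted p under 0.05). With same-numbered samples as a block PSAN and LHB1B2 also passed as lower (limma, adjusted p = 0.0229 and 0.00700). Of all probes tested, 32.9% were lower in the fit without the block and 35.6% in the fit with it. In bulk RNA, fewer cells that express a gene and less of its RNA per cell cannot be told apart.

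PSBY had deposited intensities with a lowest value of 0.942, a median of 1.22 and a highest value of 1.28 in sucrose medium, against 1.19, 1.51 and 1.69 in water. The groups overlapped slightly: 5 of the 6 water samples lay above every sucrose sample, and water replicate 4 did not. Replicates 3 and 4 were the lowest samples of both groups, with set means of 0.972 in sucrose medium and 1.24 in water, yet the difference between the groups was alike in the 3 sets, at -0.30, -0.35 and -0.35 on the log2 scale.

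After quantile normalisation PSBY ranged from -0.51 to 0.08 with a median of -0.05 in sucrose medium, against 0.48 to 0.74 with a median of 0.65 in water (log2 intensity). The groups no longer overlapped, as was so, in the same direction, for 23.9% of the 2805 probes above 0 in all samples. The fit gave a log2 fold change of -0.79 with an SE of 0.11 (limma, adjusted p = 3.97e-05), with means of -0.15 ± 0.24 in sucrose medium and 0.64 ± 0.09 in water (SD, n = 6 each). That fit called 64.4% of the 2915 probes, 32.9% as lower and 31.5% as higher, so a single gene past it is near what the array shows at large. With the 3 sets of 2 samples averaged PSBY still passed (limma, adjusted p = 0.00875), in a fit that called 23.9% of probes lower. By rank the probe stood between places 407 and 676 from the brightest of 3439 in sucrose samples and between 235 and 286 in water samples.

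PSBW, the other photosystem II subunit, had deposited intensities with a lowest value of 26.9, a median of 31.8 and a highest value of 37.0 in sucrose medium, against 38.1, 44.9 and 47.5 in water. All 6 sucrose samples lay below all 6 water samples, as they did for 4.43% of the probes tested. Replicates 3 and 4 were highest in sucrose medium, at a mean of 36.5, and replicates 5 and 6 in water, at 46.6, so the difference varied between the sets, from -0.30 in samples 3 and 4 to -0.69 in samples 5 and 6 on the log2 scale, with -0.46 in samples 1 and 2.

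The normalised values of PSBW did not separate the groups. They ran from 4.95 to 5.54 with a median of 5.24 in sucrose medium and from 5.04 to 5.43 with a median of 5.22 in water (log2 intensity), lower in 3 pairs and higher in 3. The log2 fold change was 0.05 ± 0.12 (SE; limma, adjusted p = 0.745). Its rank hardly moved, at places 11 to 17 in sucrose samples and 12 to 16 in water samples. Without any scaling the log2 fold change of the same probe was -0.48 ± 0.10 (adjusted p = 0.000443). With values of 100 as missing, which removes more of the top places in water than in sucrose medium, it was -0.43 after quantile normalisation (limma, adjusted p = 0.0204), and 34.1% of probes were then lower.

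PSAN, of photosystem I, differed least on the deposited scale, where 2.01 was its lowest value, 2.26 its median and 2.69 its highest value in sucrose medium, against 2.12, 2.78 and 3.13 in water. The groups overlapped, with 4 water samples above every sucrose sample. Water replicate 6 was the lowest water sample by some distance, and its pair differed by only -0.02 on the log2 scale, while the widest pair, number 3, differed by -0.46. The sets differed by -0.16 in samples 1 and 2, by -0.36 in samples 3 and 4 and by -0.13 in samples 5 and 6.

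After normalisation PSAN spanned 0.95 to 1.48 in sucrose medium (median 1.16) and 1.11 to 1.61 in water (median 1.52) in log2 intensity. It was lower in 6 of 6 pairs, as were 33.9% of the 2805 probes above 0 in all samples, and the groups overlapped. The log2 fold change was -0.24 ± 0.12 (SE; limma, adjusted p = 0.0901). With pairs of samples as a block, by replicate number, its adjusted p was 0.0229, in a fit that called 35.6% of all probes lower. With averaged sets it was 0.275. Leaving out water replicate 6 gave -0.31 (adjusted p = 0.0294) and leaving out sucrose replicate 1 gave -0.30 (adjusted p = 0.0449).

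LHB1B2, the antenna gene, showed the widest spread between samples of a group, with coefficients of variation of 20.2% in sucrose medium and 19.2% in water on the deposited scale. Its intensities had a lowest value of 6.47, a median of 9.42 and a highest value of 10.9 in sucrose medium, against 9.79, 13.0 and 16.5 in water. Samples 5 and 6 were the lowest of both groups, with means of 6.83 in sucrose medium and 10.4 in water, and water replicate 6 overlapped the sucrose samples while the other 5 water samples lay above them all. Within the sets the difference was -0.34 in samples 1 and 2, -0.67 in samples 3 and 4 and -0.60 in samples 5 and 6 on the log2 scale.

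In normalised log2 intensity LHB1B2 spanned 2.80 to 3.48 with a median of 3.35 in sucrose medium and 3.15 to 3.90 with a median of 3.56 in water. It was lower in 6 of 6 pairs, as were 33.9% of the 2805 probes above 0 in all samples, but the groups overlapped. The log2 fold change of -0.29 ± 0.14 did not pass (SE; limma, adjusted p = 0.0980). The blocked fit, which called 35.6% of all probes lower, gave an adjusted p of 0.00700 (limma). Leaving out water replicate 6 gave -0.37 (limma, adjusted p = 0.0336), and averaged sets gave an adjusted p of 0.262. Proteins of this antenna class come from several closely related genes, among them LHB1B1 (AT2G34430), the next annotated gene on the chromosome. The annotation gives the probe to LHB1B2 alone, and signal from related transcripts was not tested.

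**Figure D1:**
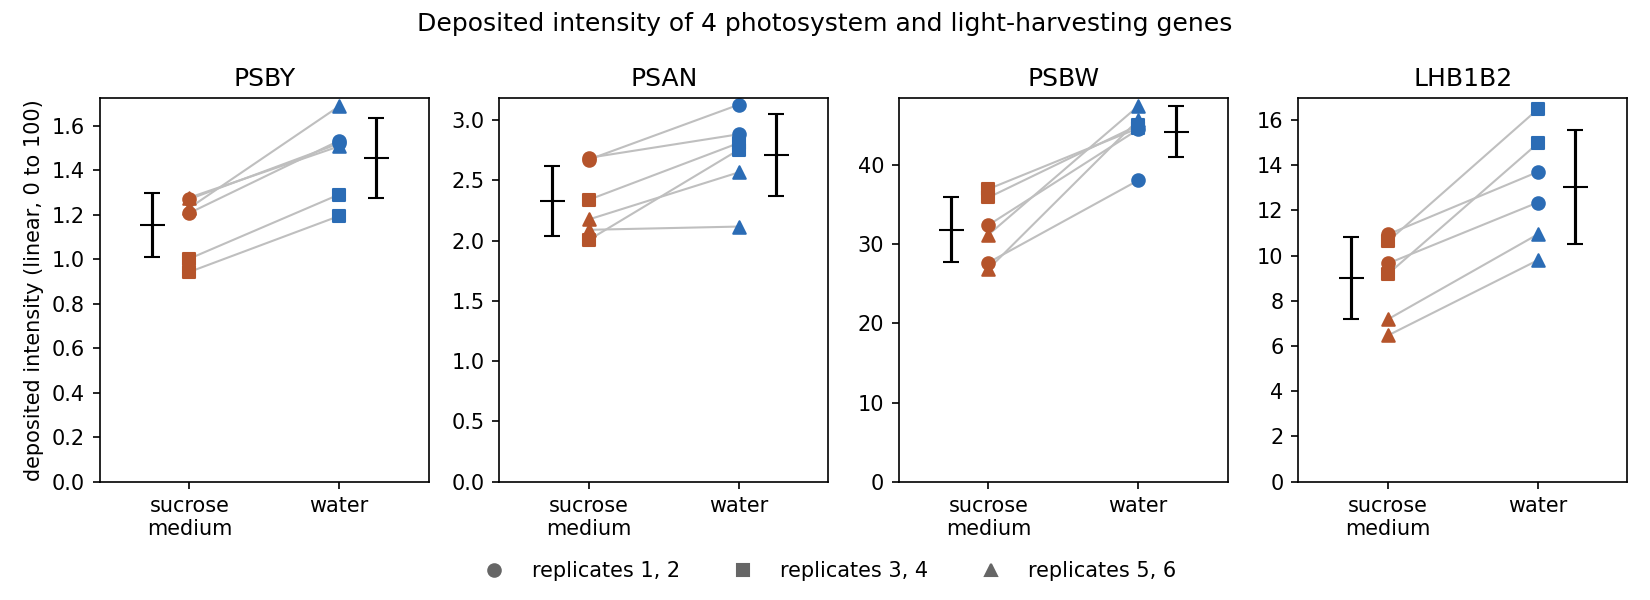
Deposited intensity (linear scale, vertical axis starting at 0) of PSBY, PSAN, PSBW and LHB1B2 in 6 sucrose medium samples (left) and 6 water samples (right); grey lines join samples of the same number, marker shapes mark the sets of 2 samples, and black bars are mean ± SD. Every line runs lower in sucrose medium, and PSBW, at 26.9 to 37.0 against 38.1 to 47.5, is the gene whose groups do not overlap.

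How far the 4 genes differ from other probes of their own brightness was described by ranking the 2915 tested probes by mean deposited intensity over all 12 samples. PSBW took place 14, LHB1B2 place 40, PSAN place 150 and PSBY place 318. Brightness belongs to a probe as well as to its transcript, so these places do not order the genes by abundance. The class limits were chosen after the values had been seen, and the counts below are descriptions with no test.

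Without scaling the brightest 60 probes had a median log2 fold change of -0.48, and PSBW with -0.48 and LHB1B2 with -0.54 lay close to it. Of these 60 probes 29 had a lower fold change than PSBW and 21 a lower one than LHB1B2. PSAN, at -0.22, was also near the median of its class, -0.25 over places 61 to 240, where 93 of 180 probes were lower. PSBY stood farther from its class: it had -0.33 while the median over places 241 to 480 was 0.22. In that class 40 of 240 probes had a lower fold change than PSBY. Dimmer probes had medians of 1.01 over places 481 to 960 and of 1.30 from place 961 on.

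Quantile normalisation brought these medians closer together, to -0.02 for the brightest 60 probes, -0.21 for places 61 to 240, -0.19 for places 241 to 480, 0.11 for places 481 to 960 and 0.01 from place 961 on. Against those, PSBW at 0.05 and PSAN at -0.24 differed from their class medians by 0.07 and -0.04. LHB1B2 lay 0.26 below its class median, with 12 of 60 probes lower than it, and PSBY 0.59 below, with 41 of 240 probes lower. The position of PSBY within its class was therefore about the same with and without scaling.

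**Figure D2:**
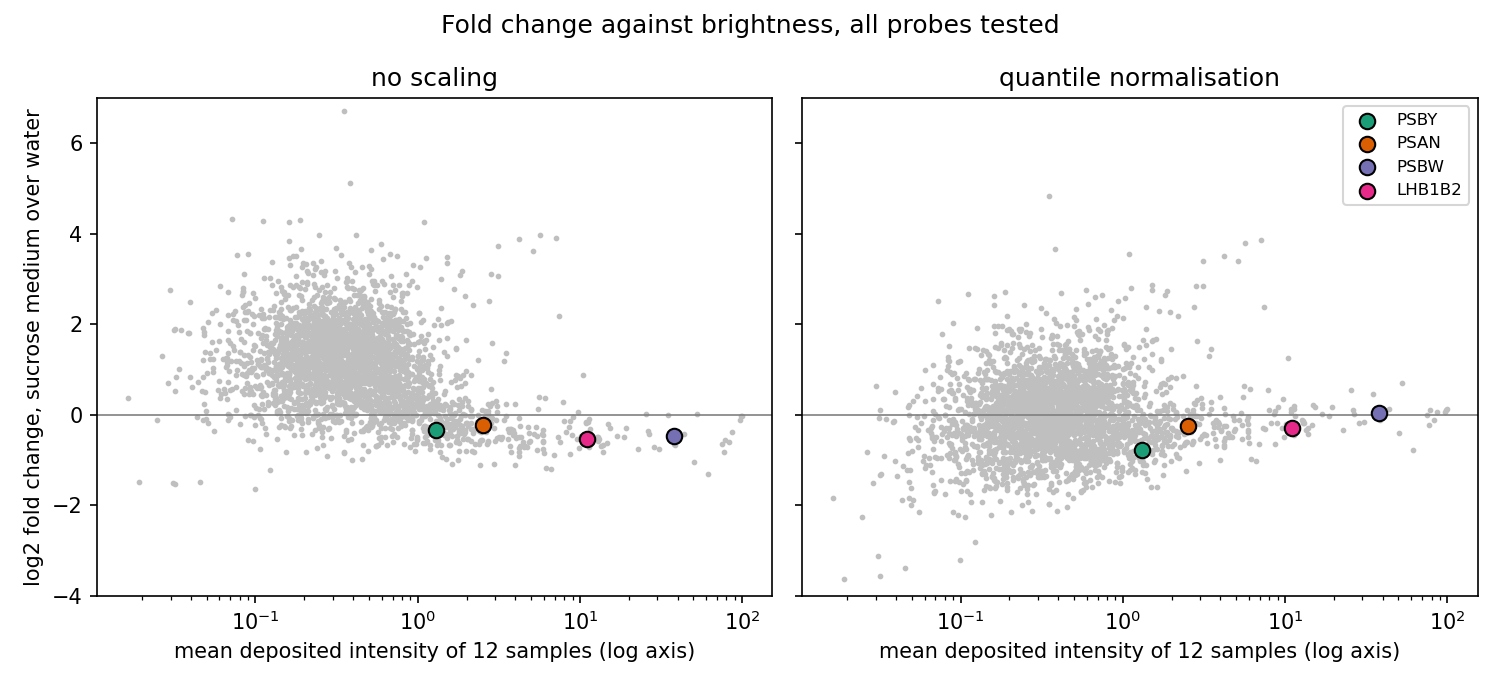
Log2 fold change, sucrose medium over water, against the mean deposited intensity of 12 samples (log axis) for all 2915 tested probes (grey), without scaling (left) and after quantile normalisation (right), with the 4 genes in colour. Without scaling most dim probes lie above 0 and most bright ones below, and PSBW at -0.48 and LHB1B2 at -0.54 sit among their bright neighbours.

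The calls for PSBW, PSAN and LHB1B2 depended on the scaling between arrays, and for PSBY only the size did. Median centring, which lines up the dim majority of probes, put all 4 genes past the threshold as lower, at -1.59 for PSBY, -1.74 for PSBW, -1.48 for PSAN and -1.80 for LHB1B2 (limma, largest adjusted p = 2.28e-06). In that setting 41.5% of all probes were lower, and 58 of the 60 brightest. Scaling each array by its mean intensity, an alternative chosen after the data had been seen, also put all 4 past the threshold, between -0.65 for LHB1B2 and -0.33 for PSAN, where 9.98% of all probes were lower. Without scaling PSBY, PSBW and LHB1B2 passed as lower and PSAN, at adjusted p = 0.0850 by limma, did not, against 7.75% of all probes. Bright probes were lower more often: without scaling 40 of the 60 brightest, 86 of 180 in the class of PSAN and 43 of 240 in that of PSBY. With scaling by mean intensity these counts were 49, 98 and 56.

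With cyclic loess, which follows brightness, PSBY was at -0.55 ± 0.10 (SE; adjusted p = 0.000294), while PSBW was at 0.10, PSAN at -0.04 and LHB1B2 at -0.09, none of them past the threshold (31.0% of all probes were lower). When a straight line mapped every array to the average of the water arrays, PSBY was at -0.38 (adjusted p = 0.0225), where 18.2% of 2075 probes were lower, and the other genes lay between -0.15 and 0.0062. PSBY thus passed as lower in each of these 6 scalings, with sizes from -1.59 to -0.33, and PSBW changed sign between them.

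**Figure D3:**
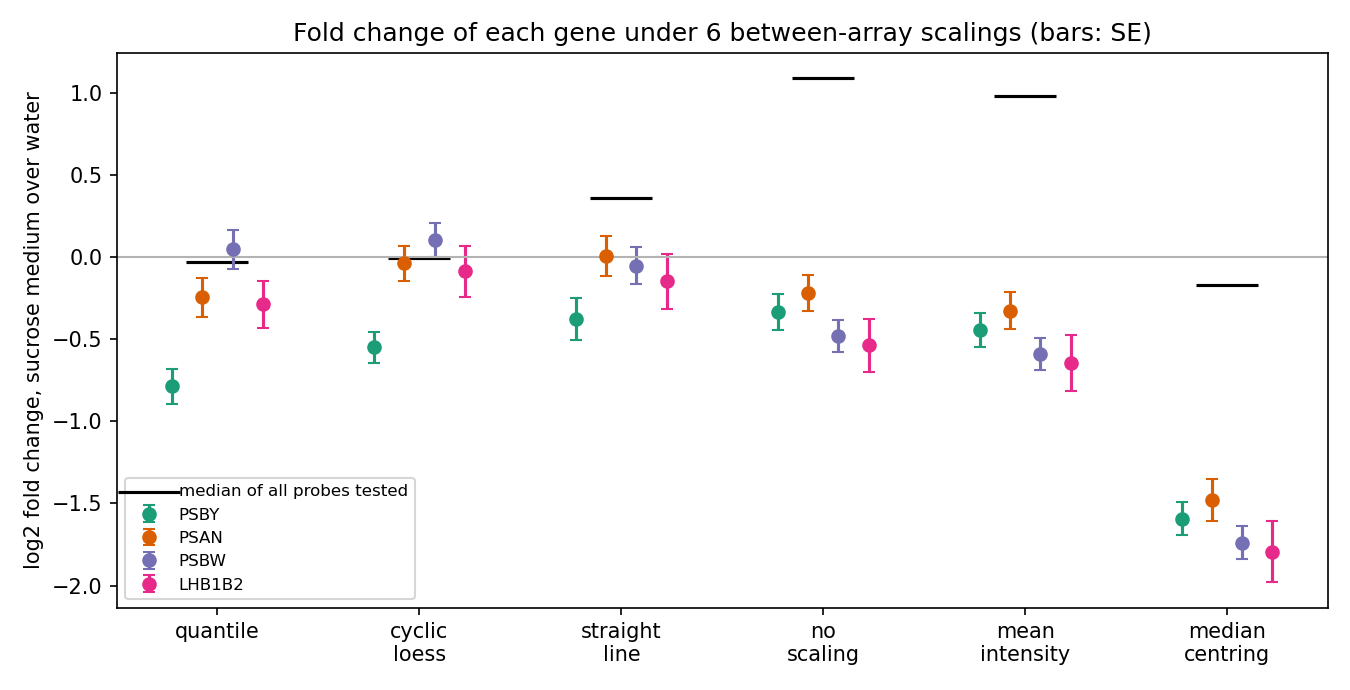
Log2 fold change, sucrose medium over water, of PSBY, PSAN, PSBW and LHB1B2 (points, bars SE) under 6 between-array scalings, with the median of all probes tested as a black line. PSBY is below 0 throughout, from -1.59 with median centring to -0.33 without scaling, while PSBW runs from -1.74 to 0.10.

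Ratios between the 4 genes within a sample do not depend on any factor that multiplies a whole array, and were compared between the groups for the 6 pairs of genes on the deposited values. No pair passed after adjustment over the 6 pairs (exact permutation test over samples, two-sided, 924 splits, smallest possible p 0.00216). The log2 ratio of PSAN to LHB1B2 differed most, by 0.32 ± 0.13 (SE, n = 6 each; exact permutation p = 0.0368, adjusted p = 0.221), and was higher in sucrose medium in 6 of 6 pairs of samples. The log2 ratio of PSBY to PSAN differed by -0.12 ± 0.15, that of PSBY to PSBW by 0.15 ± 0.17 and that of PSBY to LHB1B2 by 0.20 ± 0.25 (adjusted p = 0.532 each, exact permutation). Of these only PSBY to LHB1B2 went one way in 6 of 6 pairs. PSBW to LHB1B2, the 2 brightest, differed by 0.06 ± 0.17. An unequal change of the 4 transcripts was thus not detected by this test on the deposited scale. With SEs of 0.13 to 0.25 on the log2 scale, the comparison could miss differences as large as 0.32. It took no account of the same-numbered pairs. A shift that depends on brightness does not cancel in these ratios. Without scaling the medians of the brightness classes were -0.48 for PSBW and LHB1B2, -0.25 for PSAN and 0.22 for PSBY. A small or large ratio difference therefore cannot show by itself whether the 4 transcripts changed equally.

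On quantile-normalised values the ratios of PSBY came out differently. PSBY to PSAN was then -0.54 and PSBY to PSBW -0.83 (adjusted p = 0.0130 each, exact permutation), and PSBY to LHB1B2 -0.50 (adjusted p = 0.0996). PSAN to LHB1B2, which differed most on the deposited values, was 0.04 (adjusted p = 0.652, exact permutation). Quantile normalisation changes bright and dim values of an array by different factors, so these ratios hold on that scale only.

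**Figure D4:**
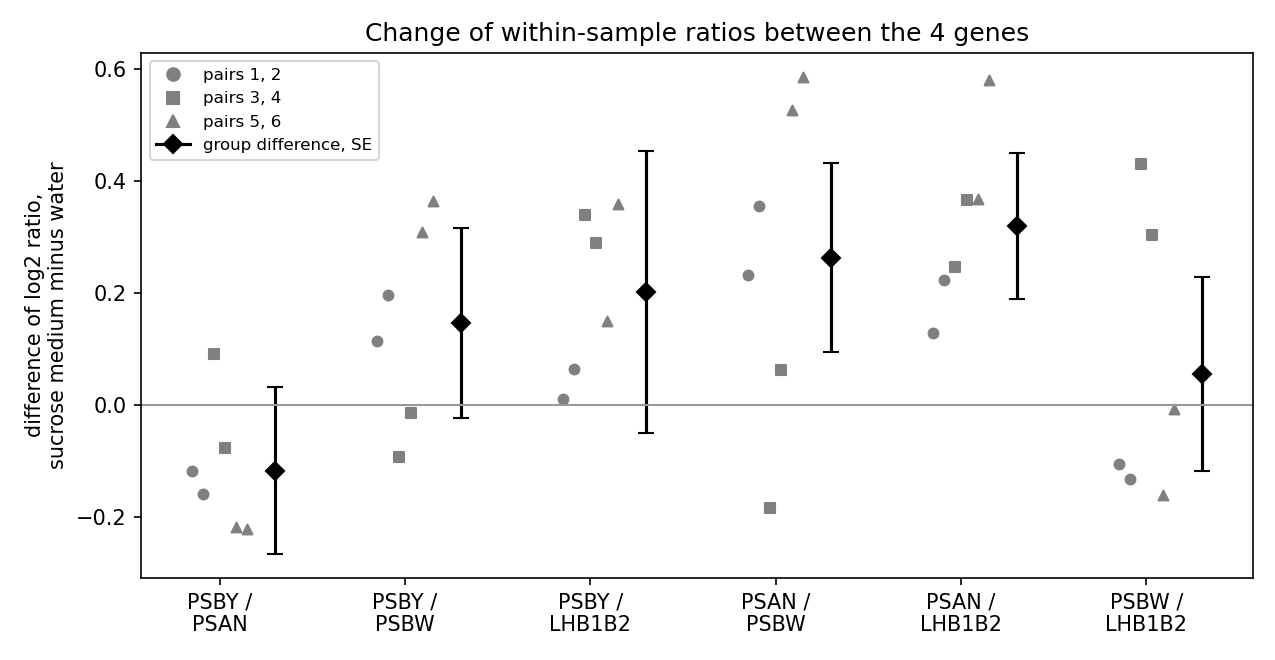
Difference, sucrose medium minus water, of the within-sample log2 ratio of deposited intensities for the 6 pairs of genes; grey points are same-numbered sample pairs, with marker shapes for the sets of 2 samples, and black diamonds are group differences with SE. PSAN over LHB1B2, at 0.32, and PSBY over LHB1B2, at 0.20, lie above 0 in all 6 pairs, and the points of the other 4 ratios fall on both sides of 0.

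Across the 12 samples PSAN and LHB1B2 had the most similar profiles among the 4 genes, with a Pearson correlation of 0.84 in normalised log2 intensity and of 0.77 after each group's mean was removed. PSBY and PSBW, both of photosystem II, stood at -0.25 and -0.35 on these measures. Both correlations rest on samples that share sets, and on 2 groups of 6, and are given as descriptions. Among 563 other single-gene probes above 0 in every sample, the closest to PSBY were AT3G14890, AT2G04700 (ferredoxin-thioredoxin reductase, catalytic subunit) and AT4G27510, with correlations of 0.98, 0.97 and 0.97. The closest to PSAN were AT3G26580, OTP70 (AT4G25270) and LHB1B2, at 0.90, 0.84 and 0.84, and the closest to LHB1B2 were AT3G59980, AT1G05490 and PSAN, at 0.87, 0.86 and 0.84. PSBW had no close match: AT5G65250, AT1G71910 and AT4G04370 led at 0.59, 0.58 and 0.58. Because the likeness takes in the difference between the groups, the choice itself fixes the direction of the genes closest to PSBY, and no test is given for them. Their log2 fold changes were -1.34, -1.92 and -0.91 after quantile normalisation and -0.08, -0.68 and 0.24 without scaling, so AT4G27510 turned its sign.

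Few other photosynthesis genes could be set beside these 4. Of 67 nuclear genes listed for photosystem I, photosystem II, light harvesting, electron transport with ATP synthase, and the Calvin cycle, 5 were tested on a probe of their own: the 4 genes above and PRK (AT1G32060), phosphoribulokinase of the Calvin cycle. Of these 5 genes 2 fell, PSBY and PRK, and 0 rose, where 32.9% of all probes tested were lower. The median log2 fold change of the 5 was -0.29 against -0.03 over all probes. It was -0.09 with cyclic loess and -0.48 without scaling, against -0.006 and 1.09 over all probes. Places 1 to 60, 61 to 240 and 241 to 480 by brightness had medians of -0.02, -0.21 and -0.19 after quantile normalisation. With cyclic loess these were 0.05, -0.04 and -0.03, and without scaling -0.48, -0.25 and 0.22. With pairs of samples as a block 4 of the 5 were lower, against 35.6% of all probes, and with averaged sets 2 of the 5, against 23.9%. PRK had a mean deposited intensity of 1.19 ± 0.15 in sucrose medium and 1.93 ± 0.41 in water (SD, n = 6 each). After quantile normalisation PRK fell by 1.05 on the log2 scale (SE 0.14; adjusted p = 2.65e-05 by limma). The size of this fold change depended on the scaling, at -0.68 without scaling and -1.94 with median centring. SBPASE (AT3G55800), sedoheptulose bisphosphatase, was listed at 0 in every sample. A further 6 genes of these lists occurred only on probes that name several genes and were not read. Of 5 root and 3 seed marker genes 0 had a probe, whether of their own or shared, so the tissue was not checked by markers.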

How the data were processed

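The authors deposited 1 linear intensity per probe and sample, in a table of 3439 probes and 12 samples; background correction, scaling and spot averaging are not given in the sources used here. Groups and replicate numbers came from the sample titles. Probe genes came from GEO's platform annotation, which can be old, matched by gene identifier to TAIR10.1. The genes, lists and tests were chosen with earlier results of these data known.

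Values of 0 were set to missing, log2 values were quantile normalised, and probes with at least 4 values above 0 per group were tested in R 4.3.3 by limma 3.58.1, through lmFit and eBayes, two-sided and with group as the only term. P-values were adjusted by Benjamini-Hochberg over the 2915 probes tested, at a threshold of 0.05. Only the quantile normalisation and the fit with group as the only term were tested on simulated data. Those data had independent noise, a minority of changed probes and no pairs or sets of samples, unlike the real ones. Within-sample ratios used exact permutation tests. Alternatives were other scalings, 0.05 added before log2, values of 100 as missing, other filters, replicate blocks, averaged sets and leaving out each sample. Named genes were the 4 genes, the measured genes of the photosynthesis lists, and the 3 most correlated genes for each of the 4.

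Deviations from group means correlated at 0.280 to 0.450 in all 6 same-numbered pairs of samples (2805 probes), at 0.162 to 0.282 for other numbers of the same set and at -0.290 to 0.045 otherwise. On this evidence the numbers were taken to pair the samples. No sequences of these genes were used. Plots were made in Python 3.11.15 with matplotlib 3.10.9.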

Additional observations from a re-analysis of the deposited data

Results flagged for a closer look

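The deposited intensity of PSBW in water replicate 1 was 38.1, far below the other 5 water samples relative to the spread of the group, and still above every sucrose sample. It was the 1 value so flagged among 28 groups of 6 values examined, and chance flags about 1 in 20 groups.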

How the results depend on the processing

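PSBY kept its direction and its side of the threshold in all alternatives run, and leaving out 1 sample gave -0.85 to -0.73. PSAN passed the threshold with median centring (-1.48), with scaling by mean intensity (-0.33) and with the fixed or random replicate block (-0.24, adjusted p = 0.0229 and 0.0333), and was at 0.0062 with the straight line. Leaving out 1 sample gave -0.31 to -0.20. PSBW turned negative without scaling (-0.48), with mean intensity (-0.59), median centring (-1.74), the straight line (-0.053) and values of 100 as missing (-0.43); leaving out 1 sample gave -0.0099 to 0.11. LHB1B2 passed without scaling (-0.54), with mean intensity (-0.65), median centring (-1.80), values of 100 as missing (-0.44) and the fixed or random replicate block (-0.29, adjusted p = 0.00700 and 0.0319); leaving out 1 sample gave -0.37 to -0.20. Of the 5 photosynthesis genes 4 passed as lower without scaling, with values of 100 as missing and with both blocks, and 5 with mean intensity and median centring. Of all probes tested, 7.75% were lower without scaling, 34.1% with values of 100 as missing and 35.6% with the fixed block. With the random block 1038 of 2915 probes were lower, with mean intensity 9.98% and with median centring 41.5%. Leaving out 1 sample gave 2 to 4 of the 5 genes, with 4 without water replicate 6, where 936 of 2889 probes were lower. Leaving out 1 sample left 1794 to 1845 probes past the threshold. On quantile-normalised values the ratio of PSBY to PSAN was -0.54, PSBY to PSBW -0.83, PSBY to LHB1B2 -0.50, PSAN to PSBW -0.29, PSAN to LHB1B2 0.04 and PSBW to LHB1B2 0.33. Leaving out 1 sample gave -0.18 to -0.04, 0.08 to 0.24, 0.08 to 0.31, 0.17 to 0.35, 0.26 to 0.37 and -0.031 to 0.15 for the 6 ratios in the order of the plot, and 0 passed. With the replicate number as a block (sign flips over 6 pairs, smallest possible exact p 0.0312) 0 of 6 ratios passed after adjustment. Before it, 2 reached that smallest p, and their adjusted p was 0.0938 (sign flips). With that floor no ratio can pass after adjustment unless several reach it together, so this count cannot show that the ratios were unchanged. Except for what scaling does by its construction, the cause of these shifts was not tested.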
